A study of Homo sapiens with 8 samples.

Results

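The AP-1 and MYC families are 2 groups of transcription factors, many of them with short-lived mRNAs, and their genes are followed here through an m6A comparison of parental and CSTF2-knockout hepatocellular carcinoma cells. The 10 members are a list of gene names drawn up with earlier results of these data known: FOS, FOSL1, FOSL2, JUN, JUNB, JUND, ATF3, MYC, MYCN and MYCL. Of these, 9 were listed, 8 among 10447 genes in HUH7 and 5, with 8 peaks among 9516, in PLC/PRF/5. HUH7 and PLC/PRF/5 are established human lines from hepatocellular carcinoma. In each line CSTF2, the gene of a cleavage stimulation factor subunit that acts at mRNA 3′ ends, was disrupted with CRISPR-Cas9, and the parental line was the control. MeRIP-seq, in which RNA fragments are pulled down with an antibody against N6-methyladenosine (m6A), was run with an immunoprecipitate (IP) and an input library for each genotype, so that each of the 8 groups held 1 library. The labels do not say whether a knockout line was 1 clone.

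AP-1 is a dimer of basic leucine zipper proteins. FOS, FOSL1 and FOSL2 pair with JUN, JUNB or JUND, whereas Jun proteins can also pair with each other or with ATF3, a stress-induced factor of the ATF family. Growth factors and stress raise the transcription of several of these genes through MAP kinases, for some, such as FOS, within minutes. In liver JUN is known for its part in regeneration and tumour formation. MYC, MYCN and MYCL are basic helix-loop-helix factors that bind E-boxes with their partner MAX and drive ribosome production, metabolism and cell division. MYC mRNA is a known target of the IGF2BP proteins, which read m6A.

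All values below are the authors' deposited log2 fold changes, 1 for each gene in HUH7 and 1 for each peak in PLC/PRF/5. The title of the table puts control before knockout but gives no ratio, and no source used here says which genotype is the numerator, so values are called positive or negative as deposited. With 1 library a group there is no replicate check, no value carries an error, and no test of the genotypes was possible. Depth is unknown, because read counts were not analysed here. Peak positions were not analysed here either, so no value can be placed in an exon or UTR. A value is called large here when its size is 1 or more, which is a change of at least 2-fold.

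The members are protein-coding genes, placed here by RefSeq (GRCh38.p14). JUN lies at chr1:58780791-58784047, ATF3 at chr1:212565407-212620777 and MYCL at chr1:39895428-39901917. FOSL2 lies at chr2:28392858-28417317 and MYCN at chr2:15940550-15947004. JUNB (chr19:12791486-12793315) and JUND (chr19:18279694-18281622) share chromosome 19, FOSL1 lies at chr11:65892049-65900545 and FOS at chr14:75278828-75282230. Genes on the opposite strand overlap 4 members: FOSL2-AS1 covers 7.42% of FOSL2, MYCNOS 29.2% of MYCN, MYCL-AS1 56.6% of MYCL and HOOK2 47.3% of JUNB. The sources do not say whether reads were counted by strand, so reads of these pairs may not be separable. HOOK2 had 0.04 in HUH7 in the authors' deposited table, and the other 3 partners were not listed in either column.

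AP-1 genes are themselves known targets of AP-1 and ATF proteins, so the promoters of 8 members were read for the families' own motifs. These promoters were taken from the RefSeq promoter table. FOSL1 and MYC were not among the 8, and MYC was left out of the search by choice. The 250 bases before the start were searched on both strands for the AP-1 element TGANTCA, the cyclic AMP element TGACGTCA, the variant TGACATCA and the E-box CACGTG. The variant was found in JUN and ATF3, against 2.37% of all 35116 promoters of that length, and the cyclic AMP element in JUND, against 1.65%. The variant was entered in the search as the JUN-type element, so its match in JUN is not read as a result. TGANTCA, present in 6.57% of all promoters, and CACGTG, present in 6.34%, were not in the windows of the 8 genes. The 3 matches are shown as the 30 bases around each, on the gene's own strand, 5′ to 3′, with the motif in capitals. They lie 67 bases before the JUN start (chr1:58784096-58784125, minus strand), 123 before the first of the 2 ATF3 starts in the table (chr1:212565273-212565302, plus strand) and 200 before that of JUND (chr19:18281804-18281833, minus strand).
JUN: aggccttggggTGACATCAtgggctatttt
ATF3: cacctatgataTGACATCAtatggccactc
JUND: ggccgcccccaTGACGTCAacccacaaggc
These matches are descriptions of the reference sequence. The m6A values below belong to RNA, not to these promoters.

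In HUH7, FOSL2 was the only one of the 3 Fos members listed, and it had the lowest value of all members. FOSL2 encodes FRA2, a Fos protein without the strong activation domain of FOS. Its value in the authors' deposited table was -3.39, a 10.5-fold difference. In the whole HUH7 column 867 genes were lower, 824 of them with a value shared by 10 or more genes and 43 without. FOS, the founding member and a classic immediate early gene, was listed in neither line, and FOSL1, which encodes FRA1, was not listed in HUH7. An absent row does not show an absent transcript, since the rule for listing a gene is not given in the sources used here.

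Of the 3 Jun genes JUNB stood apart in HUH7. JUNB, which can act against JUN in cell growth, was given 1.41 in the authors' deposited table, higher than 84.0% of the column. JUN had -0.10 there and JUND, the Jun gene with the steadiest expression in most cells, had 0.065 in the same authors' deposited table. Both lay within 0.2 of 0, as did 20.0% of all HUH7 genes. ATF3 was positive at 1.26 in the authors' deposited table, higher than 82.0% of the column and next to JUNB. JUN and JUND thus lay close to 0, while JUNB and ATF3 were large and positive and FOSL2 was large and negative.

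Of the MYC family in HUH7, MYC lay near 0 and MYCN and MYCL were large and positive. MYC itself was given -0.17 by the authors' deposited table, a 1.12-fold difference. MYCN, best known from neuroblastoma and also expressed in liver progenitor-like tumour cells, was given 3.04 (8.20-fold) in the authors' deposited table. In the whole column 780 genes were higher than MYCN, 491 of them with a value shared by 10 or more genes and 289 without. MYCL, first described in small cell lung cancer, had 9.92 in the authors' deposited table. This number is not particular to MYCL. Exactly the same value stood beside 60 genes, and 1315 HUH7 genes (12.6%) held 1 of 16 such repeated values, each shared by 10 or more genes. The 8 positive repeated values stood to one another on the linear scale as 3, 4, 5, 6, 7, 8, 9 and 10, with that of MYCL at 4. No unrepeated value was above 7.92, so the size of the MYCL value has no rank among the unrepeated ones.

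**Figure D1:**
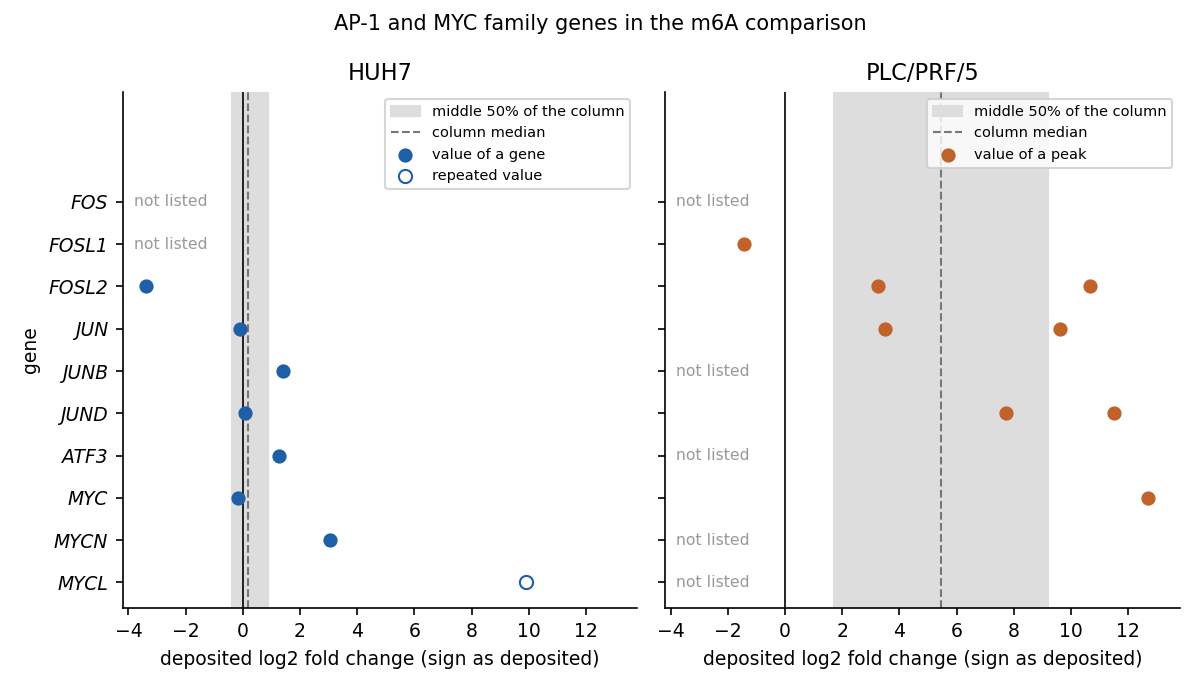
Deposited log2 fold changes (x axis, sign as deposited) of the 10 members (y axis) in HUH7, 1 point a gene, and in PLC/PRF/5, 1 point a peak; the shaded band is the middle 50% of all values of the column, the dashed line its median, and the open circle a value shared by many genes. In HUH7, FOSL2 (-3.39) lies left of the band and ATF3 (1.26), JUNB (1.41), MYCN (3.04) and MYCL (9.92) right of it, whereas 7 of the 8 PLC/PRF/5 peaks are positive.

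By count, 4 of the 8 HUH7 members had a value of 1 or more (JUNB, ATF3, MYCN and MYCL) and 1 had -1 or less (FOSL2). Over all HUH7 genes 22.2% reached 1 or more and 14.6% reached -1 or less. Positive values were held by 5 of the 8 members, beside 60.8% of all genes. The members' median was 0.66, beside 0.20 over all genes, and it was 0.065 over the 7 members with an unrepeated value. With 8 genes, each of the large values weighs heavily in these counts.

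In PLC/PRF/5 the Fos family had peaks of both signs. FOSL1 had 1 peak, at -1.43 in the authors' deposited table, the only negative peak of any member. FOSL2 had 2 peaks, at 3.25 and 10.67 in the authors' deposited table, both on the opposite side of 0 from its HUH7 value. The Jun family had 4 peaks, all positive. JUN was given peaks at 3.50 and 9.62 by the authors' deposited table. JUND was given peaks at 7.74 and 11.50 by the authors' deposited table, the lower of them between the 2 JUN peaks and the higher above both. MYC had 1 peak, at 12.69, and only 187 of the 9516 peaks in the authors' deposited table were higher. JUNB, ATF3, MYCN and MYCL, the 4 members with large positive values in HUH7, were not listed in PLC/PRF/5, where 37.6% of all HUH7 genes were listed.

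Of the 8 member peaks, 7 were at 1 or more and 1 at -1 or less. Over all PLC/PRF/5 peaks 79.7% were at 1 or more and 7.31% at -1 or less, so the members' count is close to that of the column. Positive values were held by 7 of the 8 peaks, beside 86.0% of all peaks. Counted once each by the median of its peaks, 4 of the 5 genes were at 1 or more, beside 84.5% of all genes, and 1 at -1 or less, beside 4.47%. The members' median peak was 8.68, beside 5.44 over all peaks.

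The PLC/PRF/5 column was filled evenly from its lowest value, -2.12, to its highest, 13.0, and each of 15 bins 1 unit wide between -2 and 13 held 599 to 655 peaks. The rank of a member peak was therefore nearly its place on that range. The MYC peak stood above 98.0% of peaks and at 98.0% of the way from the lowest to the highest value. For the FOSL1 peak the 2 figures were 4.35% and 4.57%, and for the lower FOSL2 peak 35.2% and 35.5%. The HUH7 column had no such form: its middle 50% of values lay between -0.36 and 0.87. What made the 2 columns differ in form was not tested, and the height of a PLC/PRF/5 peak was not read as the strength of a change at that gene.

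**Figure D2:**
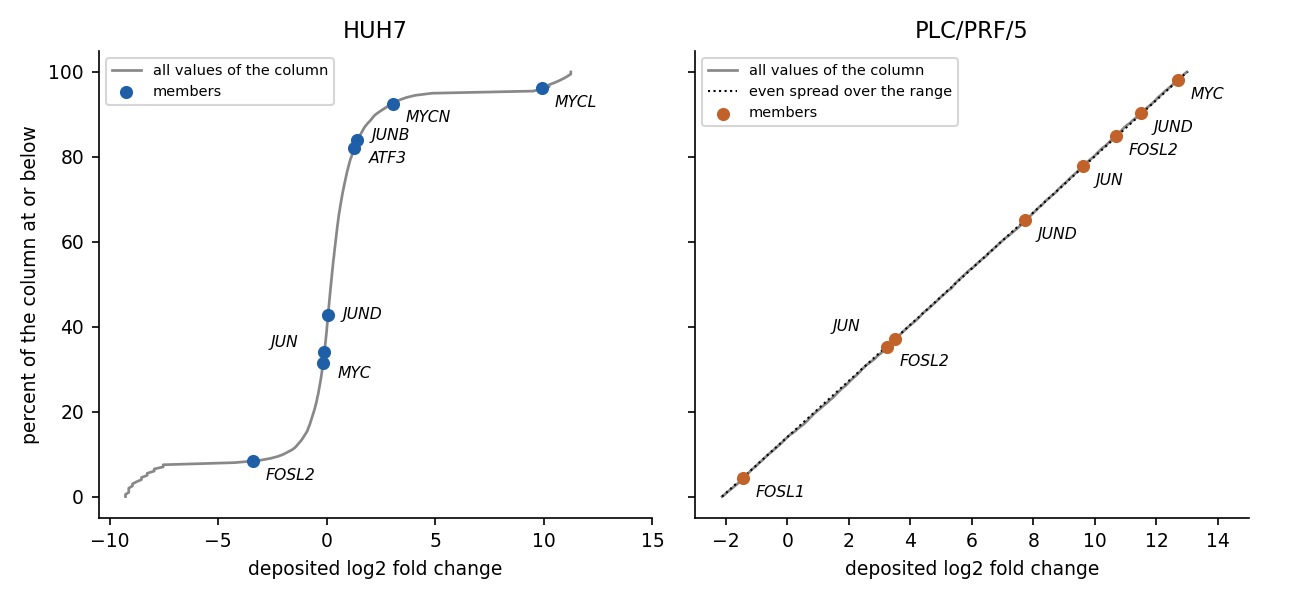
Percent of all values of a column at or below a given deposited log2 fold change (x axis) for HUH7 and PLC/PRF/5; the grey line is the whole column, the points are the members, and the dotted line is an even spread over the range. The PLC/PRF/5 line runs along the dotted one, so that MYC at 98.0% and FOSL1 at 4.35% mark places on an evenly filled range, while the HUH7 line is steep around 0.

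Peaks of the same member differed by several log2 units, as did those of other genes. The 2 FOSL2 peaks differed by 7.42 log2 units, the 2 JUN peaks by 6.11 and the 2 JUND peaks by 3.76. Over the 1273 genes with exactly 2 peaks the median gap was 4.35 (middle 50% 1.95 to 7.51), and over every pair of peaks in the column, whichever their genes, it was 4.40 (middle 50% 2.02 to 7.51). The 3 members thus lay within the middle 50% of genes with 2 peaks. JUN and JUND are short genes of 3257 and 1929 bases, FOSL2 has 24460 bases, and 39.5% of PLC/PRF/5 genes had 2 or more peaks.

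**Figure D3:**
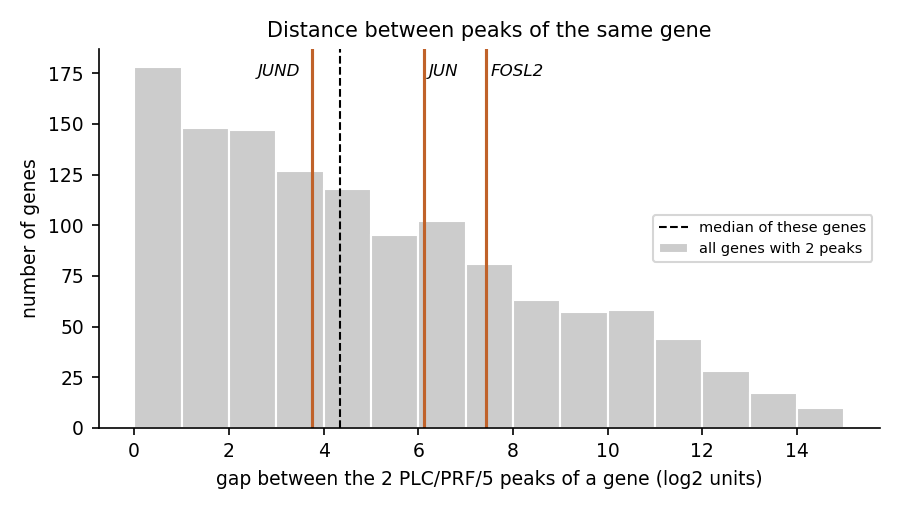
Gap between the 2 PLC/PRF/5 peaks of a gene (x axis, log2 units) for the 1273 genes with exactly 2 peaks, as the number of genes in each bin (y axis); the dashed line is their median, 4.35. JUND (3.76) lies below the median and JUN (6.11) and FOSL2 (7.42) above it.

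FOSL2, JUN, JUND and MYC were listed in both lines, 4 of the 8 members found in HUH7. As deposited, only JUND had the same sign in both, with 0.065 in HUH7 and a median of 9.62 in PLC/PRF/5. FOSL2 had -3.39 and a median of 6.96, JUN -0.10 and 6.56, and MYC -0.17 and 12.69, medians taken from the peaks of the authors' deposited table. Over the 3929 genes of both columns 56.8% had the same sign, and 37.9% were negative in HUH7 with a positive PLC/PRF/5 median. The signs of JUN, JUND and MYC in HUH7 rest on values close to 0. Setting the signs side by side assumes 1 direction of the ratio for both columns, which no source used here gives. With the sign of one column turned, FOSL2, JUN and MYC would share a sign and JUND would not, 3 of 4 members, beside 43.1% of the genes of both columns.

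Likeness to other genes could be measured over these 2 comparisons only, as the distance in log2 units between HUH7 values and PLC/PRF/5 medians of the authors' deposited table, among 3928 other genes. The nearest gene to FOSL2 was PDZK1 at 0.044 (-3.44 and 6.96), and the nearest to JUN was RBM19 at 0.015 (-0.09 and 6.56). TMED8 was nearest to JUND at 0.036 (0.09 and 9.64), and RGS12 was nearest to MYC at 0.0996 (-0.11 and 12.61). The nearest distances of other genes were not computed for comparison. No relation between the genes of a pair is therefore read from these distances.

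Of the genes around these factors, 10 lists were drawn up from textbook roles, with earlier results of these data known. They held 181 distinct genes in all, of which 144 were listed in HUH7. Among the 144, 24.3% had a value of 1 or more and 11.8% of -1 or less, near the 22.2% and 14.6% of all genes.

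Kinases and Ras proteins upstream of AP-1 had the highest HUH7 median of the 10 lists. Of 23 genes 20 were listed, with a median of 1.10 beside 0.20 over all genes. Of the 20, 11 (55.0%) were at 1 or more and 1 at -1 or less, beside 22.2% and 14.6% of all genes. MAPK14, the p38 kinase, had 2.12, NRAS 1.84 and MAP2K3, a kinase that activates p38, 1.80 in the authors' deposited table. BRAF (11.24) and MAP3K1 (11.09), 2 kinases at the head of MAP kinase cascades, held 2 of the list's 3 repeated values in the authors' deposited table. All 3 were positive. Without the repeated values the list's median was 0.96. In PLC/PRF/5 the kinase genes had 17 of 19 peaks at 1 or more, beside 79.7% of all peaks, and MAP3K7 (12.52), HRAS (12.21) and MAP2K4 (10.90) had the highest gene medians, each of 1 peak, in the authors' deposited table. The MAP kinase phosphatases, which switch these kinases off, were listed for 8 of 9 genes in HUH7. All 8 were positive, beside 60.8% of all genes. Of the 8, 2 were at 1 or more and 0 at -1 or less, beside 22.2% and 14.6% of all genes. DUSP4 (1.66), DUSP7 (1.45) and DUSP10 (0.54) had the largest of these values, and DUSP6 (8.93) and DUSP16 (3.61) had 1 PLC/PRF/5 peak each, by the authors' deposited table.

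Other basic leucine zipper genes related to AP-1 were mostly positive in HUH7, and few were large. Of 20 genes 19 were listed, 16 positive (beside 60.8% of all genes) and 3 negative. Of the 19, 5 were at 1 or more (26.3%, beside 22.2% of all genes) and 0 at -1 or less (beside 14.6%). NFE2L1 (1.74) and MAFK (1.63), of the NRF and small MAF families, and CREB5 (1.35) led the unrepeated values of the list by the authors' deposited table. FOSB, the Fos family gene outside the 10 members, was given 9.50, the lowest of the positive repeated values in the authors' deposited table. In PLC/PRF/5 the list had 12 of 16 peaks at 1 or more and 3 at -1 or less, beside 79.7% and 7.31% of all peaks. ATF4, a factor of the amino acid response, had 11.99 and BATF3 8.11 in the authors' deposited table, while BACH1 had a median of 6.96 and JDP2 one of 0.50, over 2 peaks each.

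The other immediate early genes went both ways in HUH7, with 11 positive and 11 negative among the 22 listed of 25. Of the 22, 4 (18.2%) were at 1 or more and 4 at -1 or less, beside 22.2% and 14.6% of all genes. CCN1, a secreted matrix protein, had 2.68, and the Krüppel-like factors KLF2 and KLF6 had 1.60 and 1.38, in the authors' deposited table. Of the list's 4 repeated values 1 was positive, EGR3 at 11.09, and 3 were negative, ELK4, an ETS partner of SRF at the FOS promoter, at -9.27 and EGR1 and KLF4, named after their values were seen, at -8.27 each in the authors' deposited table. In PLC/PRF/5, CCN2 (11.67), IER5 (11.23) and ZFP36L1 (10.15) had the highest and ZFP36 (-0.77), whose protein binds AU-rich elements of short-lived mRNAs, the lowest gene median of this list, each of 1 peak, in the authors' deposited table.

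MYC's partners and antagonists, the MAX network, were all listed in HUH7, 5 positive (beside 60.8% of all genes) and 5 negative. Of the 10, 1 was at 1 or more and 2 at -1 or less, beside 22.2% and 14.6% of all genes. The repressor MNT had 1.65, MXI1 -1.28 and MLXIPL, the carbohydrate-response factor ChREBP of liver, 0.65 in the authors' deposited table. MXD1, a repressor that competes with MYC for MAX, held a repeated value of -8.75 in the authors' deposited table. Of this network only MGA and MLXIP had PLC/PRF/5 peaks, MGA 7 from 0.64 to 12.12 and MLXIP 1 at 4.85 in the authors' deposited table. MYC cofactors were all listed in HUH7, 4 of 14 (28.6%) at 1 or more and 2 at -1 or less, beside the same 22.2% and 14.6%. BPTF (4.32), a chromatin remodelling subunit needed by MYC, and the acetyltransferase KAT2A (3.47) were the largest unrepeated, and RUVBL1 (-9.27) was the repeated value, in the authors' deposited table. RUVBL1 had 11.61 and HCFC1 -0.13 in PLC/PRF/5 by the authors' deposited table, and medians over several peaks were 6.26 for CCNT1 and 4.65 for EP400.

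Genes that control the turnover of MYC and JUN proteins were listed for 14 of 20 in HUH7. Of the 14, 2 (14.3%) were at 1 or more and 4 at -1 or less, beside 22.2% and 14.6% of all genes. The ubiquitin ligase genes TRIM32 (-2.81) and FBXL14 (1.57) and the deubiquitinase gene USP36 (-1.38), which acts on MYC, were the farthest from 0 among unrepeated values by the authors' deposited table. USP37 (-8.75) and the phosphatase subunit gene PPP2R5A (-7.94) held repeated values in the authors' deposited table. ITCH (12.88) and COP1 (10.72), 2 ubiquitin ligase genes not listed in HUH7, were among the highest and SKP2 (0.84) was the lowest of this list's PLC/PRF/5 gene medians in the authors' deposited table.

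Target genes had HUH7 medians near 0. AP-1 targets were listed for 9 of 22 in HUH7, with a median of -0.10. Of the 9, 1 (11.1%) was at 1 or more and 0 at -1 or less, beside 22.2% and 14.6% of all genes. HMOX1, haem oxygenase, had 1.10, SPP1, osteopontin, -0.76 and the cytokine gene LIF -0.57 in the authors' deposited table. In PLC/PRF/5, CCND1 had a median of 6.43 and VEGFA one of 6.04, and HBEGF (6.0) and HMOX1 (-1.41) had 1 peak each in the authors' deposited table. MYC targets were listed for 19 of 28 in HUH7, with a median of 0.09. Of the 19, 4 (21.1%) were at 1 or more and 3 at -1 or less, beside the same 22.2% and 14.6%. The transferrin receptor gene TFRC (4.21), the amino acid transporter gene SLC7A5 (-1.93) and the chaperonin gene HSPD1 (-1.59) had the largest sizes in the authors' deposited table. HSPE1 had 8.08 and SLC7A5 -1.41 in PLC/PRF/5 by the authors' deposited table, and medians over 2 peaks were 6.88 for LDHA and 5.62 for NPM1.

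The m6A readers, writers and erasers reported to act on mRNAs of these families were listed for 9 of 10 in HUH7. Of the 9, 1 (11.1%) was at 1 or more and 1 at -1 or less, beside 22.2% and 14.6% of all genes. IGF2BP3 had -1.36, ALKBH5 0.67 and YTHDF3 -0.59 in the authors' deposited table, and YTHDF1 held a repeated value of 10.50. IGF2BP1 (4.75) and ALKBH5 (6.48) had 1 PLC/PRF/5 peak each in the authors' deposited table. Medians over peaks of both signs were 6.78 for IGF2BP2 (4 peaks, -0.92 to 10.87) and 0.95 for METTL14 (3 peaks, -0.04 to 12.82).

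**Figure D4:**
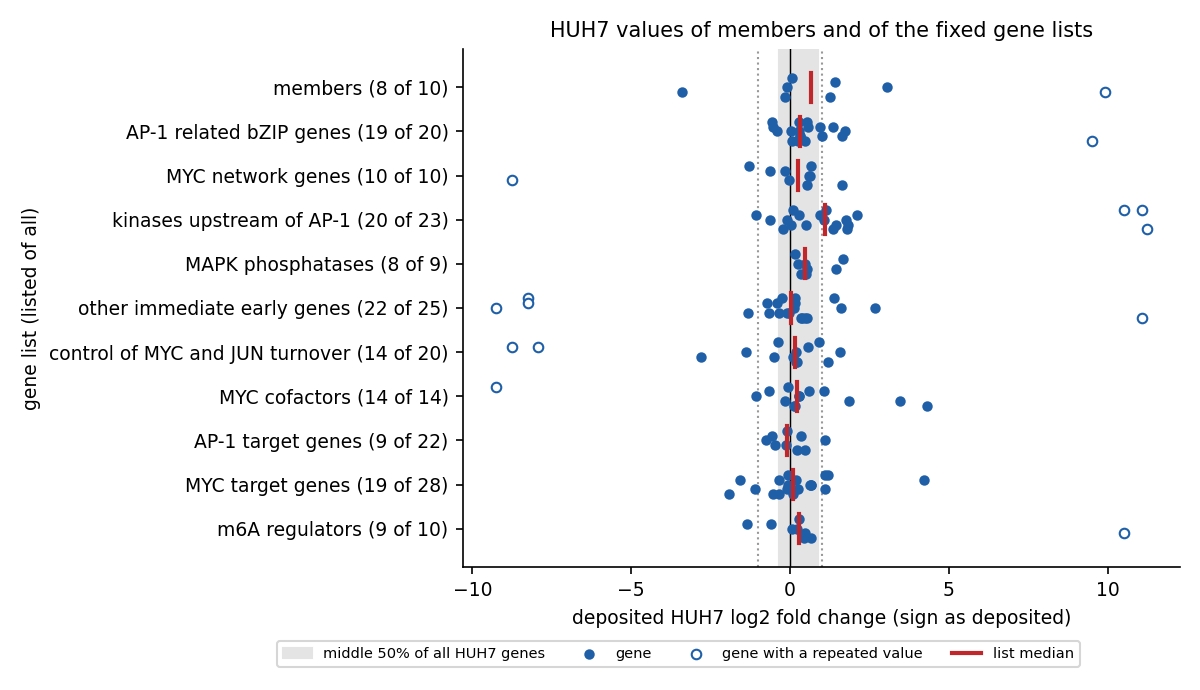
Deposited HUH7 log2 fold changes (x axis, sign as deposited) of the members and of the 10 gene lists (y axis, with the number listed of all in the list); points are genes, open circles repeated values, red bars list medians, dotted lines -1 and 1, and the band the middle 50% of all HUH7 genes. The kinase list has the highest median (1.10), and the members range from -3.39 to 9.92.

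Of 10 hepatocyte markers, 7 were listed in each line; ALB was listed in PLC/PRF/5 only and AFP and TTR in neither. Over all HUH7 genes 22.2% were at 1 or more and 14.6% at -1 or less. Of the 7 hepatocyte markers in HUH7, 1 was at 1 or more and 0 at -1 or less. Fibroblast and stellate markers were listed for 4 of 6 in HUH7 and 0 of 6 in PLC/PRF/5. All 4 were at 1 or more, 1 of them with a repeated value, and their median was 3.99. Endothelial markers were listed for 3 of 5 in HUH7 and 1 of 5 in PLC/PRF/5. In HUH7, 0 of these 3 were at 1 or more and 2 at -1 or less, 1 of them with a repeated value. Immune markers were listed for 2 of 6 in each line, 1 of them at 1 or more in HUH7. The part of these marker genes in the members' values was not tested. CSTF2, the targeted gene, was not listed in HUH7 and had 1 PLC/PRF/5 peak at -0.50 in the authors' deposited table, which belongs to the m6A comparison and checks no knockout.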

How the data were processed

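MeRIP-seq libraries (IP and input) of parental and CSTF2-knockout cells of 2 lines were grouped by their titles, 1 library a group. The values are log2 fold changes deposited by the authors, per the file headers, in 1 column for each line. The submitters' processing notes name FastQC 0.12.0 and genome build hg38; the aligner, peak caller, scaling and differential test are named by no label or header. Names were brought to current symbols through RefSeq (GRCh38.p14): 10127 of 10447 HUH7 names were current and 149 matched a synonym, against 4966 and 158 of 5477 in PLC/PRF/5. A HUH7 value shared by 10 or more genes to 6 decimals, with a size above 1, was called repeated. Each PLC/PRF/5 gene was summarised by its median peak. Counts used a size of 1 or more, with 0.5 and 2 as alternatives, and the others were centring, leaving out repeated values, names as deposited and other rules for a gene's peaks. The pathway lists were rerun without repeated values, and the sign of one column was turned, alternatives chosen after seeing the data.

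The members and gene lists were chosen with earlier results of these data known. Beside the members, the text names the 3 genes of each list with the largest unrepeated HUH7 value, up to 2 with a repeated one, up to 3 with the highest and 1 with the lowest PLC/PRF/5 median, the nearest gene to each member of both lines, and CSTF2; 3 genes this rule would name are not reported here. FOSB falls under this rule; EGR1, KLF4 and the marker genes ALB, AFP and TTR were named after their values or absence were seen. Counting and matching were tested on simulated data. Python 3.11.15, pandas 2.3.3 and matplotlib 3.10.9 were used.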

Additional observations from a re-analysis of the deposited data

Results flagged for a closer look

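For 3 members every value of one cell line lay, as deposited, on the opposite side of 0 from every value of the other, and this difference was not tested. It assumes 1 direction of the ratio for both columns; with one column turned, these 3 would share a sign and JUND would not. FOSL2 was negative in HUH7 and both of its PLC/PRF/5 peaks were positive, with the median peak 10.36 log2 units above the HUH7 value. JUN (6.66 units) and MYC (12.86 units) were slightly negative in HUH7, within 0.2 of 0, and positive in PLC/PRF/5. These distances are not read as sizes of a difference between the lines, since the PLC/PRF/5 column was evenly filled from -2.12 to 13.0. Each line gave 1 comparison without replicates. Of the genes of both lines, 37.9% were negative in HUH7 with a positive PLC/PRF/5 median. That rule is looser, since a positive median allows some negative peaks.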

How the results depend on the processing

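Of the HUH7 members, 4 were at 1 or more, 3 without repeated values and 2 at a size of 2 or more. FOSL2, the only member at -1 or less, was counted under every alternative run. In PLC/PRF/5, 7 of 8 peaks were at 1 or more, and 4 of 5 genes were when each gene was counted once by its median. At a size of 2 or more the negative peak was lost, leaving 0. The HUH7 median of the members, 0.66, was 0.065 without repeated values and 0.47 after centring on the column median. Among the pathway lists, leaving out repeated values moved the median of the MYC network from 0.25 to 0.54 and that of the kinases from 1.10 to 0.96; the other 8 list medians moved by less than 0.1. As deposited, 1 of 4 members had the same sign in both lines, and 3 did with the sign of one column turned. No alternative reversed a median. No paired analysis was possible because the deposited values are comparisons without columns for single libraries. Depth limits could not be set.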
